A study of Rattus norvegicus with 6 samples.

Results

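Ketone use and fatty acid oxidation were examined through a list of 30 genes in the brains of newborn rats (Rattus norvegicus). The genes were taken by symbol from the expression tables, and all 30 were found, each with 1 identifier, among 30498 genes. The CR group had 3 libraries from pups whose dams had been calorically restricted to give growth-restricted fetuses, and the control group had 3 libraries, which the labels describe only as control. Birth was by Caesarean section, with dissection straight after it. The labels call every sample whole brain and give no strain, sex, restriction schedule or litter, and they do not say whether the samples of a group came from separate pups. RNA of the Y chromosome was present in 2 of 3 CR libraries and 1 of 3 control libraries, so the libraries of a group did not all come from the same pup. The p-values measure only the spread between these samples, part of which may be technical.

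The brain burns mainly glucose, but in the suckling period it also burns the ketone bodies 3-hydroxybutyrate and acetoacetate, which the liver makes from milk fat. In mitochondria, 3-hydroxybutyrate dehydrogenase, succinyl-CoA:3-oxoacid transferase and acetoacetyl-CoA thiolase turn ketone bodies into acetyl-CoA. Long-chain fatty acids enter mitochondria as carnitine esters and are shortened in rounds of dehydrogenation, hydration, a further dehydrogenation and thiolysis, and in the brain most of this takes place in astrocytes. The nuclear receptors of the PPAR family and the coactivator PGC-1alpha are known to raise the genes of these enzymes in liver and muscle during fasting.

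Levels are given in FPKM, fragments scaled to exon length and to the assigned reads of the library. The libraries held between 22161522 and 25734737 assigned reads in CR and between 14030961 and 25345354 in control. Regional markers separated the same libraries. Against the label of whole brain, the control libraries held little RNA of midbrain and hindbrain markers. They also held less RNA of thalamic, hypothalamic and cerebellar markers than the CR libraries. The summed FPKM of 8 midbrain markers was 26.4 to 33.8 in CR and 0.599 to 1.12 in control. These 8 reached the mean of 0.5 FPKM needed for testing only through the CR libraries, so no count of their calls is given. The 9 dorsal telencephalic markers summed to 169 to 267 FPKM in CR and 461 to 579 FPKM in control, with 8 of 9 lower in CR. Astrocyte markers summed to 355 to 400 FPKM in CR and 202 to 245 FPKM in control, with 9 of 10 higher. Over all genes tested, 17.7% were higher and 16.2% lower in CR. No marker of these 3 lists was at 0 in all libraries, but the midbrain markers Pou4f2 and Pax7 were at 0 in every control library. CR replicate 3 stood apart in hindbrain markers (40.8 FPKM, against 10.4 and 9.43 in CR replicates 1 and 2 and 0.69 to 0.907 in control). Thalamic markers summed to 76.1 to 112 FPKM in CR and 4.07 to 20.7 FPKM in control. Hypothalamic markers summed to 45.7 to 66.0 FPKM in CR and 8.67 to 10.8 FPKM in control. Cerebellar markers summed to 94.3 to 113 FPKM in CR and 34.0 to 50.5 FPKM in control. The part of region, cell type and sex in the differences below was not tested, and in such samples fewer cells of a type and less RNA per cell cannot be told apart.

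Among the 30 genes, 28 reached a mean of 0.5 FPKM over the 6 libraries and were tested with limma on log2(FPKM + 1), with p-values adjusted over all 15247 genes tested. Of these 28, 9 rose in CR, none fell and 19 did not pass an adjusted p of 0.05. Over all genes tested, 33.9% passed, 17.7% as higher and 16.2% as lower in CR. The 9 genes that rose make 32.1% of the members tested. The members that rose were Oxct1, Cpt1a, Acadl, Acadm, Eci1, Eci2, Decr1, Etfa and Ppargc1a, with log2 fold changes from 0.21 to 0.74. The median log2 fold change was 0.15 for the 28 members and 0.01 for all genes tested, and the median size of the change, without its sign, was 0.15 for the members and 0.20 for all genes tested. In 13 of the 28 (46.4%) the 3 CR values lay above the 3 control values, against 26.1% of all genes tested, and in none did they lie below, against 24.3%. Without CR replicate 1, or without CR replicate 3, 5 members passed in place of 9.

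**Figure D1:**
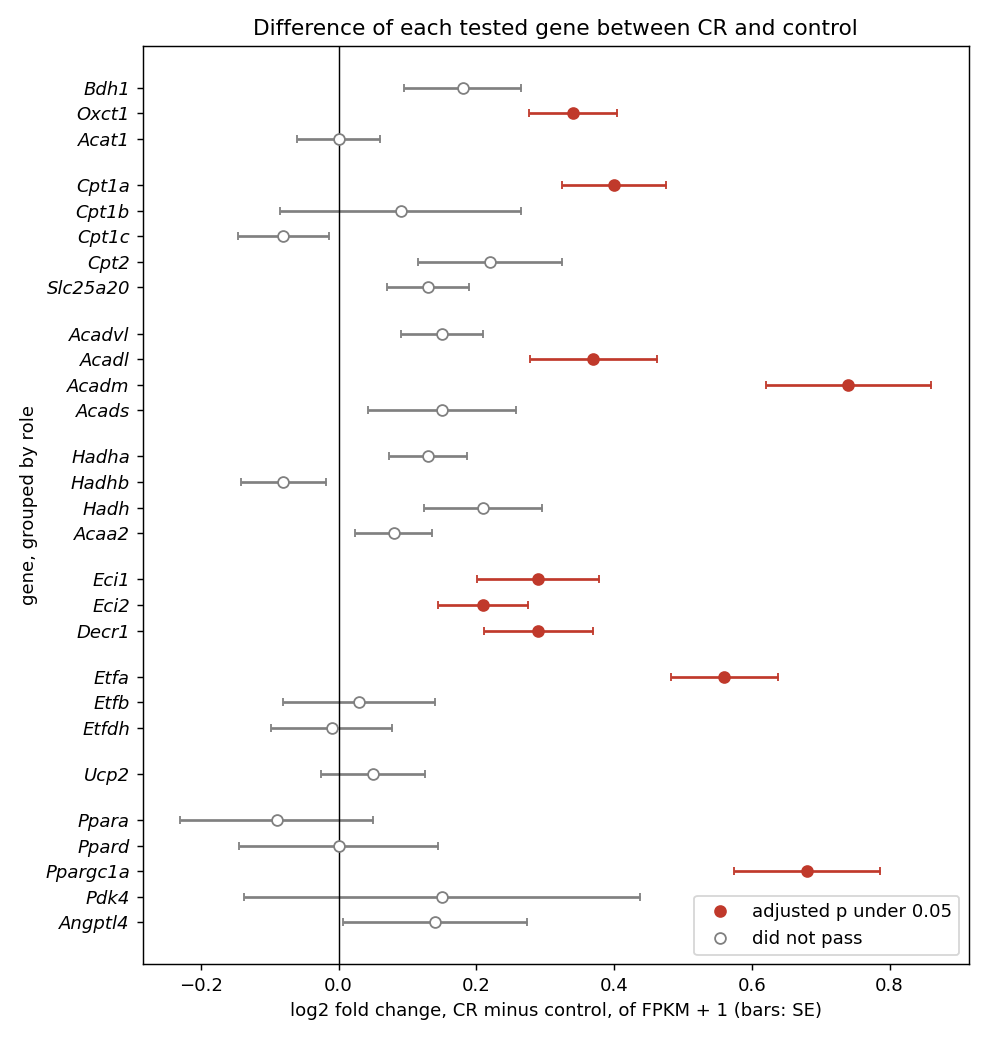
Log2 fold change (CR minus control, on the scale of log2(FPKM + 1)) with its standard error for the 28 tested genes, grouped by role from ketone use at the top to regulators at the bottom. The 9 filled points passed an adjusted p of 0.05 and all lie to the right of 0, and the open points lie between -0.09 and 0.22.

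Ketone-using enzymes were among the most abundant members, and the transferase rose in CR. Acat1, mitochondrial acetoacetyl-CoA thiolase, and Oxct1, the transferase that activates acetoacetate for oxidation, had means of 79.7 and 72.9 FPKM over the 6 libraries, above 94.6% and 94.1% of the genes tested. Oxct1 (ENSRNOG00000043094, chromosome 2 from 53236368 to 53384714 on mRatBN7.2, plus strand) was at 80.3, 83.3 and 80.8 FPKM in CR and at 61.7, 60.6 and 70.9 FPKM in control. The groups did not overlap, and Oxct1 was 1.26-fold higher in CR (log2 fold change 0.34, SE 0.0642, limma adjusted p = 0.00684). Acat1, which acts on the product of that transferase, was at 77.5, 83.8 and 77.8 FPKM in CR and at 80.0, 84.9 and 74.1 FPKM in control, with the groups overlapping throughout (log2 fold change 0.00, SE 0.0606, adjusted p = 0.985). Bdh1, which oxidises 3-hydroxybutyrate to acetoacetate, was at 20.3, 20.9 and 21.7 FPKM in CR and at 20.8, 18.3 and 16.3 FPKM in control. Control replicate 1 lay inside the CR range, and Bdh1 did not pass (log2 fold change 0.18, SE 0.0851, adjusted p = 0.136). Without that library its log2 fold change was 0.27 (adjusted p = 0.0327).

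**Figure D2:**
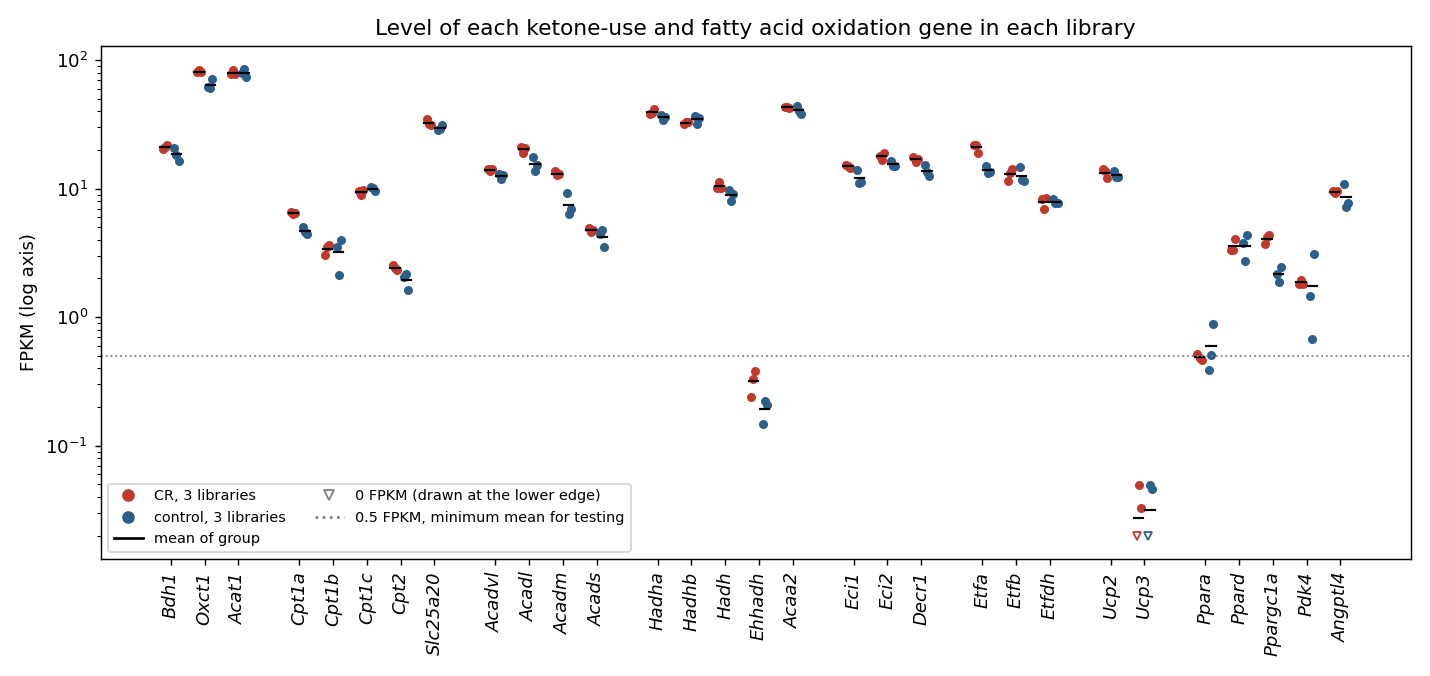
FPKM on a log axis of each of the 30 genes in each of the 6 libraries, CR points left of control points, with the group mean as a bar and the genes grouped by role. Acat1 and Oxct1 are at the top near 80 FPKM, Ehhadh and Ucp3 lie under the dotted line at 0.5 FPKM that a mean had to reach to be tested, and Pdk4 has control points from 0.673 to 3.12 FPKM around CR points from 1.81 to 1.96 FPKM.

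The carnitine shuttle carries long-chain acyl groups into mitochondria, and 1 of its 5 members, the liver-type carnitine palmitoyltransferase gene Cpt1a, rose in CR. Cpt1a (ENSRNOG00000014254, chromosome 1 from 200565613 to 200627055, plus strand) was at 6.60, 6.34 and 6.52 FPKM in CR and at 5.02, 4.62 and 4.42 FPKM in control. All CR values lay above all control values, a 1.38-fold difference (log2 fold change 0.40, SE 0.0752, limma adjusted p = 0.00673). Cpt1c, the brain form of the enzyme, which is known to have little activity on fatty acids, was at 9.52, 8.87 and 9.79 FPKM in CR and at 10.3, 10.1 and 9.56 FPKM in control. Cpt1c overlapped between the groups and missed the threshold (log2 fold change -0.08, SE 0.0656, adjusted p = 0.377). The muscle form Cpt1b was at 3.03, 3.53 and 3.62 FPKM in CR and at 3.50, 2.12 and 4.01 FPKM in control, where the spread was wide (log2 fold change 0.09, SE 0.175, adjusted p = 0.731). Skeletal muscle markers summed to 17.3 to 34.0 FPKM in CR and 10.1 to 11.1 FPKM in control. Acta1 was the largest part of these sums, at 13.4 to 17.6 FPKM in CR and 8.49 to 9.12 FPKM in control. Several of the other markers, among them Tnnt3 and Tnnc2 (control means 0.195 and 0.497 FPKM), reached the level needed for testing only through the CR libraries. No count of calls is therefore given for this list. The part of such tissue in Cpt1b was not tested. Cpt2, the inner-membrane partner enzyme, averaged 2.42 ± 0.120 FPKM in CR and 1.95 ± 0.273 FPKM in control (SD, n = 3 each), with no overlap but without passing (limma adjusted p = 0.145). The carnitine-acylcarnitine carrier Slc25a20 was the most abundant member of the shuttle, at 32.7 ± 1.73 FPKM in CR and 29.7 ± 1.59 FPKM in control, and did not pass (adjusted p = 0.125).

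The acyl-CoA dehydrogenases open each round of beta-oxidation, and the genes for the medium-chain and long-chain enzymes rose. Acadm, the medium-chain dehydrogenase (ENSRNOG00000009845, chromosome 2 from 242858865 to 242883147, minus strand), was at 13.6, 12.7 and 13.0 FPKM in CR and at 9.27, 6.38 and 6.92 FPKM in control. Even the highest control library lay well under the CR libraries, and Acadm was 1.74-fold higher in CR, with a log2 fold change of 0.74 (SE 0.120, limma adjusted p = 0.00388). Acadl, the long-chain dehydrogenase, was at 21.1, 19.0 and 20.7 FPKM in CR and at 17.5, 13.6 and 15.3 FPKM in control (log2 fold change 0.37, SE 0.0926, adjusted p = 0.0184). The groups did not overlap, but Acadl no longer passed when CR replicate 1 was left out (adjusted p = 0.0610) or when CR replicate 3 was (0.0644). The very-long-chain dehydrogenase Acadvl averaged 14 ± 0.354 FPKM in CR and 12.5 ± 0.627 FPKM in control (SD, n = 3 each), again with no overlap, and did not pass (limma adjusted p = 0.0901). The short-chain dehydrogenase Acads was at 4.94, 4.57 and 4.78 FPKM in CR and at 4.46, 4.73 and 3.50 FPKM in control, with overlap between the groups (log2 fold change 0.15, SE 0.107, adjusted p = 0.325).

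The later steps of each round had no member past the threshold. Hadha and Hadhb encode the alpha and beta subunits of the mitochondrial trifunctional protein, and they lie head to head on chromosome 6, with Hadhb starting at 26184869 on the minus strand, Hadha starting at 26187956 on the plus strand, and 3086 nucleotides between them. Hadha was at 38.0, 38.6 and 42.0 FPKM in CR and at 37.5, 34.5 and 36.1 FPKM in control, with the lowest CR value just above the highest control value (log2 fold change 0.13, SE 0.0562, limma adjusted p = 0.111). Hadhb was at 32.1, 32.9 and 32.8 FPKM in CR and at 36.9, 31.6 and 35.3 FPKM in control (log2 fold change -0.08, SE 0.0623, adjusted p = 0.351). The short-chain 3-hydroxyacyl-CoA dehydrogenase gene Hadh averaged 10.5 ± 0.676 FPKM in CR and 8.95 ± 0.888 FPKM in control (limma adjusted p = 0.0991), and the thiolase gene Acaa2, the third most abundant member, averaged 43.0 ± 0.340 FPKM in CR and 40.7 ± 2.77 FPKM in control (adjusted p = 0.306). The peroxisomal bifunctional enzyme gene Ehhadh had 18, 29 and 33 reads in CR and 7, 19 and 13 reads in control and was too low to be tested. Its level was 0.240, 0.333 and 0.379 FPKM in CR and 0.147, 0.221 and 0.208 FPKM in control, so the groups did not overlap.

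Enzymes for unsaturated fatty acids had all 3 of their genes higher in CR, by small amounts. The isomerases Eci1 and Eci2 move double bonds so that the chain can go on through beta-oxidation, and Decr1 reduces dienoyl-CoA intermediates. Eci1 was at 15.2, 15.0 and 14.5 FPKM in CR and at 14, 11.1 and 11.3 FPKM in control (log2 fold change 0.29, SE 0.0884, limma adjusted p = 0.0403). Decr1 was at 17.5, 16.1 and 17.1 FPKM in CR and at 15.3, 13.4 and 12.5 FPKM in control (0.29, SE 0.0789, adjusted p = 0.0272). Eci2 was at 18.0, 16.8 and 19.1 FPKM in CR and at 16.3, 15.1 and 15.0 FPKM in control (0.21, SE 0.0654, adjusted p = 0.0451). The groups did not overlap in any of the 3, yet these calls were the least stable among the members. The Eci1 and Decr1 calls were lost on leaving out any single library other than control replicate 1 (adjusted p up to 0.112 for Eci1 and 0.0862 for Decr1), and the Eci2 call was lost without CR replicate 1, CR replicate 3, control replicate 2 or control replicate 3 (up to 0.157). When low genes were not filtered out, none of the 3 passed (adjusted p = 0.0735 for Eci1, 0.0505 for Decr1 and 0.0647 for Eci2).

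Electrons from the acyl-CoA dehydrogenases pass through electron transfer flavoprotein, a dimer of the Etfa and Etfb products, to the ubiquinone oxidoreductase encoded by Etfdh. Only Etfa, of these 3 genes, passed the threshold. Etfa (ENSRNOG00000015233, chromosome 8 from 55835134 to 55891969, minus strand) was at 22.0, 21.8 and 18.9 FPKM in CR and at 15.0, 13.2 and 13.4 FPKM in control. The groups were well apart, with Etfa 1.51-fold higher in CR (log2 fold change 0.56, SE 0.0780, limma adjusted p = 0.00230). Etfb was at 11.5, 13.2 and 14.1 FPKM in CR and at 14.7, 11.7 and 11.5 FPKM in control, fully overlapping (log2 fold change 0.03, SE 0.110, adjusted p = 0.834). Etfdh was at 8.33, 6.91 and 8.41 FPKM in CR and at 8.38, 7.70 and 7.71 FPKM in control (-0.01, SE 0.0882, adjusted p = 0.939). Etfdh overlaps Ppid, a gene on the opposite strand with a mean of 98.5 FPKM, Etfb overlaps Vsig10l on the same strand (2.27 FPKM) and Acadvl overlaps Dvl2 on the opposite strand (6.46 FPKM), so reads of these pairs may not have been told apart.

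Ratios within a library do not depend on how libraries are scaled, and 6 ratios between genes of the same complex, pathway or family were computed. They were chosen after the values had been seen. Etfa, Oxct1, Cpt1a and Acadm had each passed, while Etfb, Acat1, Cpt1c and Acads had not. The ratios of these pairs therefore restate those calls and are no separate support. The Etfa to Etfb ratio was 1.92, 1.65 and 1.34 in CR and 1.02, 1.13 and 1.17 in control. The Hadha to Hadhb ratio was 1.19, 1.18 and 1.28 in CR and 1.02, 1.09 and 1.02 in control. The Cpt1a to Cpt1c ratio was 0.693, 0.715 and 0.666 in CR and 0.489, 0.456 and 0.462 in control. In each of these the groups did not overlap, as was also so for Oxct1 to Acat1 (1.02 ± 0.0245 in CR and 0.814 ± 0.127 in control) and for Acadm to Acads (2.75 ± 0.0285 in CR and 1.80 ± 0.395 in control, SD, n = 3 each). For these 5 ratios the two-sided exact permutation test gave p = 0.10, the smallest value that 3 against 3 libraries allow (0.12 when adjusted over the 6 ratios). The Oxct1 to Bdh1 ratio overlapped between the groups, at 3.89 ± 0.150 in CR and 3.55 ± 0.715 in control (exact permutation p = 0.40).

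**Figure D3:**
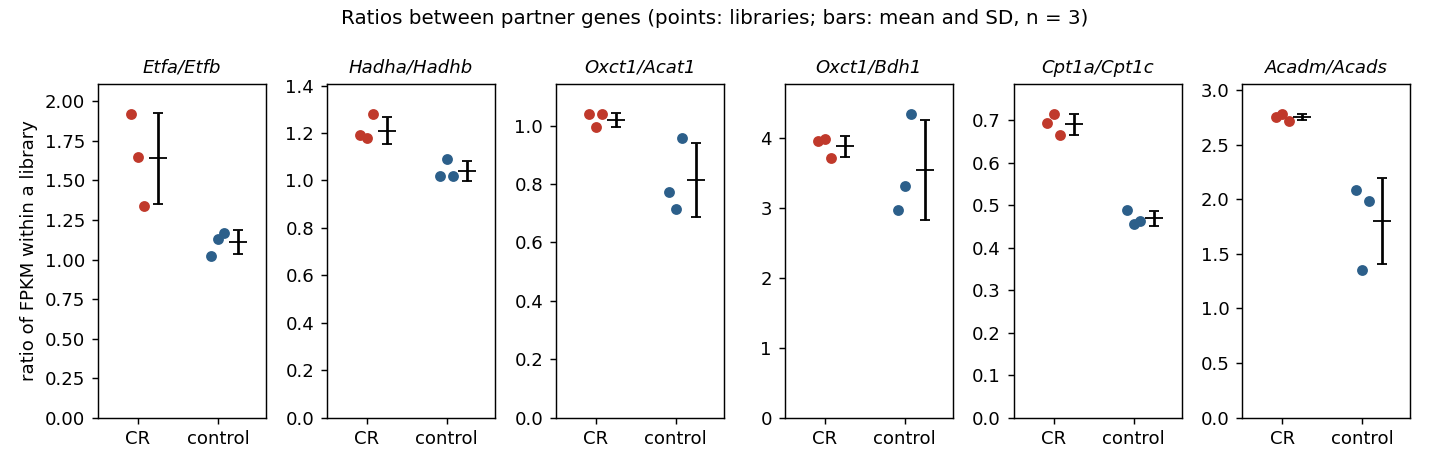
Ratio of FPKM between genes of the same complex, pathway or family within each library, with axes starting at 0, points for the 3 CR and 3 control libraries, and the mean and SD of each group beside them. The groups are apart in 5 of the 6 panels, and in Oxct1/Bdh1 control replicate 3 (4.35) lies above the CR libraries (3.72 to 3.99).

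Uncoupling proteins, carriers of the inner mitochondrial membrane, did not pass. Ucp2 was at 14.1, 13.7 and 12.1 FPKM in CR and at 13.7, 12.4 and 12.3 FPKM in control (log2 fold change 0.05, SE 0.0751, limma adjusted p = 0.621). Ucp3, the muscle form, whose gene lies 10446 nucleotides from Ucp2 on chromosome 1 and on the same strand, had 0, 3 and 2 reads in CR and 0, 3 and 2 reads in control. With no library above 3 reads, no fold is given for Ucp3. Brown fat markers summed to 0.456 to 0.905 FPKM in CR and 0.219 to 0.296 FPKM in control, and none of the 5 reached the level needed for testing.

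Among regulators and fasting-induced genes, the coactivator gene Ppargc1a rose and the others did not pass. Ppargc1a, which encodes PGC-1alpha (ENSRNOG00000004473, chromosome 14 from 58861144 to 59512656, plus strand), was at 3.70, 4.19 and 4.32 FPKM in CR and at 2.16, 1.87 and 2.47 FPKM in control. The groups were far apart, and the level in CR was 1.88-fold that in control (log2 fold change 0.68, SE 0.106, limma adjusted p = 0.00325). Another gene, ENSRNOG00000067137, overlaps Ppargc1a on the same strand, at a mean of 0.67 FPKM. The receptor genes Ppara and Ppard overlapped between the groups. Ppara was at 0.514, 0.481 and 0.462 FPKM in CR and at 0.388, 0.508 and 0.886 FPKM in control (log2 fold change -0.09, adjusted p = 0.654), from 11 to 33 reads, and Ppard averaged 3.58 ± 0.424 FPKM in CR and 3.61 ± 0.809 FPKM in control (SD, n = 3 each). Pdk4, a pyruvate dehydrogenase kinase that fasting induces in many tissues, was at 1.81, 1.96 and 1.82 FPKM in CR and at 1.46, 0.673 and 3.12 FPKM in control. Its CR values were close together inside a control range that spread over 4-fold, and it did not pass (log2 fold change 0.15, SE 0.287, adjusted p = 0.708). Angptl4, a secreted inhibitor of lipoprotein lipase, was at 9.62, 9.18 and 9.60 FPKM in CR and at 10.9, 7.22 and 7.67 FPKM in control (0.14, SE 0.134, adjusted p = 0.440). Without control replicate 1 its log2 fold change was 0.31 (adjusted p = 0.0243).

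The control libraries were more spread than the CR libraries for most members. The coefficient of variation over 3 libraries had a median of 4.93% in CR and 10.2% in control for the 28 tested members, and of 6.87% in CR and 9.55% in control for all genes tested. It was larger in control for 21 of the 28 members, against 65.6% of all genes tested. Control replicate 1 was the highest control library for 18 of the 28 members and the lowest for 2. The same count over all genes tested was not made, so this is not shown to be particular to the members. The median-ratio size factor, the typical level of a gene in a library, was 1.023 in control replicate 1, 0.9753 in control replicate 2 and 1.001 in control replicate 3. Control replicate 1 was also the library with the fewest reads. Its thalamic markers summed to 4.07 FPKM, against 18.0 and 20.7 in control replicates 2 and 3, and its choroid plexus markers to 2779, against 1654 and 1155. Its cerebellar sum (42.0 FPKM) lay between theirs (34.0 and 50.5). The part of depth and tissue content in its member values was not tested. The widest control spreads were those of Pdk4 (71.3%), Ppara (43.8%) and Cpt1b (30.5%), whose coefficients in CR were 4.5%, 5.42% and 9.37%.

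Promoter sequence, the 250 bases before the start of each gene, was available from RefSeq on assembly GRCr8 for 24 of the 30 members. It was searched on both strands for 3 elements: a repeat of AGGTCA with 1 base between the copies, which PPAR and RXR dimers bind, the element TCAAGGTCA, which estrogen-related receptors bind, and the palindrome TGACGTCA, the cyclic AMP response element. The PPAR repeat was in 0 of the 24 member promoters and in 0.0508% of all 33469 promoters, and the estrogen-related receptor element was in 0 and in 0.388%. Both are so rare over all promoters that 0 was the likely count for any 24, and no conclusion is drawn from it. Only exact copies within the 250 bases were searched, so inexact or more distant elements would be missed. Whether these RefSeq starts are those of the Ensembl genes counted here, or those used in brain, was not tested. The cyclic AMP response element was in 2 of the 24 and in 1.59% of all promoters. The 2 were those of Acadm and Ppargc1a, and they are shown because both genes passed the threshold, each 5′ to 3′ on the strand of its gene with the element in capitals. The Acadm window is chr2:245542865-245543114, minus strand, with its element starting 103 bases before the RefSeq start. The Ppargc1a window is chr14:63634058-63634307, plus strand, with its element starting 181 bases before the RefSeq start.
Acadm: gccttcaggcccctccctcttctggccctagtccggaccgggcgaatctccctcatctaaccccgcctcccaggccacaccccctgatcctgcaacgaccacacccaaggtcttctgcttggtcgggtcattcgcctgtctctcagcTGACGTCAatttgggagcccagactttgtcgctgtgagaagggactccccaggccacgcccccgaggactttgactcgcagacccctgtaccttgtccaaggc
Ppargc1a: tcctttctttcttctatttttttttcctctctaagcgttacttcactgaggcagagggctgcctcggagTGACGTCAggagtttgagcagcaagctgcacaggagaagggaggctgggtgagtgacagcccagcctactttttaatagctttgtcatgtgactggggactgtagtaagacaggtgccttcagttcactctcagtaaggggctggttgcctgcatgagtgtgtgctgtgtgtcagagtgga
The windows differ in base composition, with 62.4% G and C in Acadm and 50.4% in Ppargc1a, against a median of 60.4% over the 24 member promoters and 51.2% over all promoters. The member promoters held a median of 13 CpG, against 5 over all promoters, and the element itself holds a CpG, so the shares of member promoters and of all promoters with it are not matched for base composition. These matches are descriptions of the sequence, and binding was not measured. Creb1, the gene of a factor that binds the element, was at 2.7, 1.93 and 2.56 FPKM in CR and at 3.87, 3.95 and 4.95 FPKM in control and fell in CR (log2 fold change -0.63, SE 0.128, limma adjusted p = 0.00879).

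Other genes of ketone and fatty acid metabolism were followed through 10 further lists. Of 148 listed genes, 142 were found and 122 tested. Of these 40 (32.8%) rose, 13 (10.7%) fell and 69 did not pass, beside 17.7% higher and 16.2% lower over all genes tested. The same 17.7% and 16.2% stand beside the count of each list below. Without CR replicate 2, or without CR replicate 3, 27 of them passed in place of 53.

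Fatty acid uptake, binding and activation had 15 of 19 tested members higher and 4 that did not pass, with none lower and a median log2 fold change of 0.30. Dbi, which encodes the acyl-CoA binding protein, averaged 130 ± 13.2 FPKM in CR and 72.2 ± 5.82 FPKM in control (SD, n = 3 each, log2 fold change 0.84, limma adjusted p = 0.000906). The acyl-CoA synthetase genes Acsbg1 (12.9 ± 0.613 FPKM in CR and 7.47 ± 0.824 FPKM in control) and Acsl4 (21.5 ± 0.970 FPKM in CR and 12.9 ± 0.638 FPKM in control) had log2 fold changes of 0.72 and 0.70 (adjusted p = 0.00142 and 0.000551). These calls passed under every alternative setting. Of 10 astrocyte markers, 9 were higher in the same libraries. So were 4 of 7 neuronal markers, with 1 lower, 4 of 8 microglial markers and 3 of 8 markers of the oligodendrocyte lineage. Of 6 endothelial markers none was higher and 1 was lower, and none of 6 pericyte markers passed. The part of these cell types in this list was not tested.

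Ketone body synthesis and its cytosolic use had 2 of 7 members higher and none lower. Aacs, the cytosolic synthetase that feeds acetoacetate into lipid synthesis, was at 20.0, 19.9 and 20.7 FPKM in CR and at 14.5, 14.4 and 14.3 FPKM in control, with narrow spread in both groups (log2 fold change 0.46, SE 0.0489, limma adjusted p = 0.000980). Hmgcll1, a lyase gene, averaged 9.69 ± 0.642 FPKM in CR and 7.31 ± 0.672 FPKM in control (adjusted p = 0.0145, and 0.0602 without CR replicate 2). Among monocarboxylate transporters, which carry ketone bodies, lactate and pyruvate, Slc16a1 fell. It was at 12.4, 11.2 and 12 FPKM in CR and at 14.8, 16.2 and 15.6 FPKM in control (log2 fold change -0.37, SE 0.0636, limma adjusted p = 0.00497). Bsg, whose product takes these transporters to the membrane, averaged 260 ± 5.36 FPKM in CR and 224 ± 10.9 FPKM in control and rose (0.22, adjusted p = 0.0126), as did the related Emb (0.37, adjusted p = 0.0180). Bsg did not pass once CR replicate 2 was left out (adjusted p = 0.0547), nor did Emb on leaving out CR replicate 2 (0.0702), CR replicate 3 (0.0672) or control replicate 2 (0.0529).

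Other mitochondrial enzymes had 6 of 16 members higher and none lower, led by Ivd, isovaleryl-CoA dehydrogenase of leucine breakdown (13.9 ± 0.622 FPKM in CR and 10.1 ± 1.2 FPKM in control), Mcee (7.89 ± 0.667 FPKM in CR and 5.66 ± 0.452 FPKM in control) and Acad10 (10.5 ± 0.119 FPKM in CR and 8.11 ± 0.566 FPKM in control). Peroxisomal beta-oxidation had 3 of 17 members higher and 14 that did not pass, with none lower, beside 17.7% higher over all genes tested. Scp2, a sterol carrier and thiolase gene, averaged 27.9 ± 0.704 FPKM in CR and 19.7 ± 1.58 FPKM in control (log2 fold change 0.49, limma adjusted p = 0.00189). The calls of Phyh (adjusted p = 0.0263) and Abcd3 (adjusted p = 0.0315) were each lost without any single CR library, and that of Abcd3 also without control replicate 2 or control replicate 3. In the carnitine list 1 of 6 members rose, the peroxisomal carnitine octanoyltransferase gene Crot (7.31 ± 0.868 FPKM in CR and 4.98 ± 0.505 FPKM in control, adjusted p = 0.0119).

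Malonyl-CoA, the product of acetyl-CoA carboxylase, blocks carnitine palmitoyltransferase, and of 9 tested genes around it 3 rose, 1 fell and 5 did not pass. Mlycd, which degrades malonyl-CoA, was at 8.90, 9.67 and 8.84 FPKM in CR and at 6.44, 6.19 and 6.60 FPKM in control (log2 fold change 0.45, SE 0.0683, limma adjusted p = 0.00302). The lipogenic regulator Srebf1 (0.44, adjusted p = 0.0385) and the elongase Elovl6 (-0.37, adjusted p = 0.0408) passed in opposite directions, and both calls were lost without any single CR library, that of Elovl6 also without control replicate 1 or control replicate 3.

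**Figure D4:**
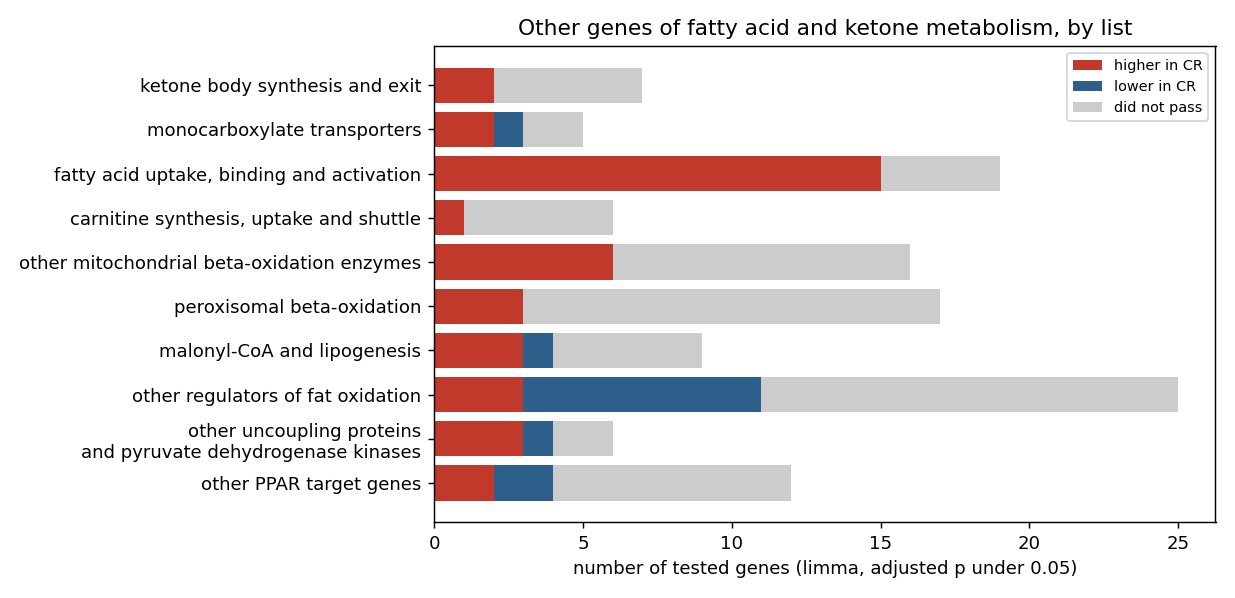
Number of tested genes in each of 10 further lists that were higher in CR, lower in CR or did not pass (limma, adjusted p under 0.05). The bar for fatty acid uptake, binding and activation is higher in 15 of its 19 genes, and the bar for other regulators has 8 of 25 lower and 3 higher.

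Regulators outside the member list had more genes lower (8 of 25) than higher (3), with 14 not past the threshold and a median log2 fold change of -0.17. Over all genes tested 16.2% were lower and 17.7% higher. The estrogen-related receptor gene Esrrg, a known partner of PGC-1alpha, was at 7.02, 7.84 and 8.90 FPKM in CR and at 2.77, 3.62 and 2.80 FPKM in control, 2.59-fold higher (log2 fold change 1.14, SE 0.117, limma adjusted p = 0.000909). Its relative Esrrb had 46, 50 and 59 reads in CR and 0, 6 and 0 reads in control. Esrrb reached the level needed for testing only through the CR libraries, which fixed its direction, so its call is not used as support. Its log2 fold change ran from 1.1 to 4.92 over the alternative settings and is no measure of the size of the difference. In the same libraries the summed midbrain, hindbrain, thalamic, hypothalamic and cerebellar markers were higher in CR. The part of these regions in Esrrg and Esrrb was not tested. Among uncoupling proteins and kinases of pyruvate dehydrogenase, 3 of 6 tested genes rose and 1 fell. The brain uncoupling protein gene Slc25a27 averaged 12.9 ± 1.62 FPKM in CR and 8.25 ± 1.64 FPKM in control (0.60, adjusted p = 0.0155), a call lost without CR replicate 2 (0.0606) or CR replicate 3 (0.0591). Pdk2, a relative of Pdk4, averaged 7.18 ± 0.232 FPKM in CR and 5.80 ± 0.0551 FPKM in control and rose (0.27, adjusted p = 0.0187), a call lost without any single CR library. Pdp1, the phosphatase that reactivates the enzyme, averaged 11.1 ± 0.523 FPKM in CR and 15.8 ± 1.95 FPKM in control and fell (-0.47, adjusted p = 0.00648).

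Of 12 tested genes that PPAR receptors are known to drive in other tissues, or that are linked to them, 2 rose, 2 fell and 8 did not pass. Over all genes tested 17.7% were higher and 16.2% lower. G0s2, an inhibitor of fat-droplet lipase, averaged 3.55 ± 0.722 FPKM in CR and 1.55 ± 1.22 FPKM in control (log2 fold change 0.93, limma adjusted p = 0.0473), with overlap, since control replicate 1 was at 2.95 FPKM and CR replicate 1 at 2.72 FPKM. Klf10 averaged 4.58 ± 0.911 FPKM in CR and 8.05 ± 1.67 FPKM in control and fell (-0.70, adjusted p = 0.0131, and 0.0507 without CR replicate 3). Txnip averaged 40.2 ± 9.41 FPKM in CR and 60.6 ± 13.0 FPKM in control (-0.59, adjusted p = 0.0453), also with overlap. The G0s2 call was lost on leaving out any single library except control replicate 1, and the Txnip call without CR replicate 1, CR replicate 3, control replicate 1 or control replicate 3.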

How the data were processed

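Polyadenylated RNA of 6 newborn rat whole brain samples was sequenced. The deposited values are FPKM per Ensembl gene, 1 table per library, made by the authors with an exon length for each gene per the file headers. The submitters' processing notes name STAR 2.7.10a, featureCounts 2.0.1, the trimmers cutadapt 1.16, Trim Galore 0.4.4 and Trimmomatic 0.36, and the build mRatBN7.2. The strand setting of the counting was not given in the labels or headers. In every library 100% of FPKM times length came out as whole multiples (within 0.05) of the worth of 1 read, which gave the reads per gene and the depths. For 1 kb of exon, 3 reads were 0.117 to 0.214 FPKM, a floor that covers counting error only. Replicate libraries were further apart than counting noise (chi-square per gene 6.63 to 15.6, where noise alone gives 1).

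A gene was tested where its mean over the 6 libraries reached 0.5 FPKM, using limma 3.58.1 in R 4.3.3 on log2(FPKM + 1), with group as the only term and a trend on the mean, two-sided, adjusted by the Benjamini-Hochberg method over all genes tested. Fold changes on that scale understate the change of low genes, and folds are ratios of mean FPKM. The fit was tested on simulated reads with known changes in 50 genes per fold, at a dispersion of 0.01. It recovered 2% of 1.25-fold, 24% of 1.5-fold, 96% of 2-fold and 98% of 4-fold changes, so small changes were mostly missed there. In the data 33.9% of the genes tested passed, so these shares may not carry over to them. Single ratios were tested with exact permutation in scipy 1.17.1. The members and lists were chosen with earlier results of these data known. All members were described, and of each further list up to 3 genes past the threshold with the largest absolute log2 fold changes were named. A planned comparison of Cpt1 and Ucp proteins was not made. Alternatives were a pseudocount of 0.1, median-ratio size factors, no filter, a stricter filter at 2 FPKM, limma-voom on the reads, the replicate number as a block, leaving out each library, and, added after the data were seen, Y-linked RNA as a covariate.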

Additional observations from a re-analysis of the deposited data

How the results depend on the processing

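Of the 9 members that rose, 5 (Oxct1, Cpt1a, Acadm, Etfa and Ppargc1a) passed under all 13 alternatives and 4 (Acadl, Eci1, Eci2 and Decr1) did not. No member passed as lower under any of the 13. The members past the threshold numbered 9 with a pseudocount of 0.1, with a mean of at least 2 FPKM and with median-ratio size factors, 8 with limma-voom on reads and with Y-linked RNA as a covariate, and 6 with no filter on low values, where 23944 genes were tested. On leaving out 1 library at a time they numbered 5 to 11. Over all genes tested, 5173 passed in the comparison as reported, and 3210 to 5042 on leaving out 1 library; 3210 was without CR replicate 2 and 3308 without CR replicate 3. For the 10 further lists, 27 to 44 passed on leaving out 1 library, against 53. Fewer libraries were compared there, and the cause of the differences between libraries was not tested. Of the 27 further genes named, 15 passed under every alternative that tested them, and none changed direction. Beyond the libraries named above, calls were lost with no filter (Phyh, Srebf1, Elovl6, G0s2, Txnip), with a pseudocount of 0.1 (G0s2), with Y-linked RNA as a covariate (Phyh, Txnip) and, among members, for Eci2 with limma-voom (adjusted p = 0.0593) and that covariate (0.0887).

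With the replicate number as a block (replicate block), 8 members passed, Eci2 being lost (adjusted p = 0.0703), and 4445 of all genes; Abcd3, Srebf1, Pdk2, G0s2 and Txnip were also lost. Deviations of same-numbered libraries from their group means correlated at 0.0245, 0.0198 and 0.0454, under the 0.1 taken to show pairing, although each library correlated best with its own number; they are taken to share only a number. A member that did not pass may still differ between the groups.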
